A study of Mus musculus and Homo sapiens with 20 samples.

Results

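The 10 genes described here encode the D cyclins (CCND1, CCND2, CCND3), their kinase partners (CDK4, CDK6) and CDK inhibitors of the Cip/Kip family (CDKN1A, CDKN1B, CDKN1C) and the INK4 family (CDKN2C, CDKN2D). They were chosen by name as rows of the count tables, 10 of 63568 rows for the human line K562 and 10 of 43626 rows for each of the mouse lines MEF and HPC-7, by a rule that uses the names alone. RNA-seq had been made from K562, an erythroid-type line from a chronic myeloid leukaemia driven by BCR-ABL1, from MEF (embryonic fibroblasts) and from HPC-7 (a blood precursor line), with 3 Control and 3 HSP90i libraries per line. HSP90i stands for NVP-AUY922, which blocks the ATP pocket of HSP90 chaperones, given for 16 h at 300 nM to K562, 200 nM to MEF and 50 nM to HPC-7. The Control columns are named DMSO, the solvent. HPC-7 was derived from mouse embryonic stem cells by forced expression of Lhx2. Line, species and dose changed together. The comparison asks which of these transcripts changed with HSP90 inhibition in each line.

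D cyclins are the growth-signal-dependent cyclins of G1. They bind CDK4 or CDK6, and the active kinase phosphorylates RB proteins, which releases E2F factors and lets cells enter S phase. INK4 proteins bind CDK4 and CDK6 alone and keep cyclin D away, whereas Cip/Kip proteins bind cyclin-CDK complexes, block those with CDK2 and help cyclin D and CDK4 assemble. Cells leaving the cycle typically lose cyclin D1, an unstable product of mitogen signalling, and gain p21 (CDKN1A) or p27 (CDKN1B). CDK4 and CDK6 proteins are also brought to HSP90 by CDC37, a kinase-specific co-chaperone, a step at the protein level that mRNA counts do not show.

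The K562 libraries held 7936066 to 10950573 counts each, those of MEF 10542305 to 22872539 and those of HPC-7 10131491 to 16859394. Levels below are CPM, counts scaled to a common library total after TMM scaling between the libraries of a line, and a gene was called when edgeR's quasi-likelihood test gave a Benjamini-Hochberg adjusted p below 0.05 over all genes tested in that line. The labels do not say whether replicates came from separate cultures. The p-values therefore weigh effects only against the spread of these libraries, and that spread may be purely technical. In bulk RNA, fewer cells of a kind and less RNA per cell cannot be told apart. Defining markers were present in the lines they define: all 6 erythroid leukaemia genes lay above 10 CPM on average in K562, 5 of 6 fibroblast genes in MEF (Thy1 did not) and 6 of 6 blood precursor genes in HPC-7. In K562, 5 of 6 blood precursor, 3 of 3 epithelium, 1 of 3 macrophage and 0 of 6 fibroblast genes also lay above 10 CPM on average. Its controls held KRT18 at 236 to 465, KRT8 at 175 to 262, EPCAM at 36.7 to 51.6 and LYZ at 141 to 150 CPM. COL1A1 stood at 5.78 to 6.99 CPM there, and CD34, COL1A2 and THY1 had no count in K562. The heat shock gene HSPA1A, a usual sign of HSP90 inhibition, averaged 24.6 CPM in control and 2514 CPM in treated K562, but 4.61 and 6.71 CPM in MEF and 0.135 and 1.67 CPM in HPC-7. HSP90AA1, the inducible HSP90 gene, went from 523 to 4820.3 CPM in K562 and from 684 to 1579 CPM in MEF, but from 673 to 437 CPM in HPC-7, with no overlap in any line. HPC-7 also held the fibroblast gene Pdgfrb (178 to 202 CPM in the controls) and MEF the precursor gene Cd34 (166 to 201 CPM). Markers also moved with treatment in HPC-7: Cd34 went from 332 to 354 CPM in controls to 32.4 to 101 CPM in treated libraries, Tfrc from 389 to 394 down to 27.3 to 73.4 CPM, Kit from 965 to 1013 up to 2316 to 2679 CPM and Gata1 from 21.6 to 24.3 up to 86.6 to 119.6 CPM. The part of these shifts in the HPC-7 results below was not tested. Libraries that stood apart need to be known before the values. In K562 Control replicate 1 the 3 epithelium genes summed to 779 CPM, against 451 and 463 CPM in the other 2 controls. Its 6 blood precursor genes summed to 434 CPM, against 600.0 and 616 CPM. Leaving that library out moved the genes called in K562 from 1491 to 3917, while leaving out HSP90i replicate 2 moved them to 348. HSP90i replicate 2 of HPC-7 had the highest level of the 3 treated libraries in 67.1% of the 4284 genes called lower and the lowest in 62.9% of the 4273 called higher. MEF Control replicate 3 held the blood genes Kit (7.32 CPM), Tal1 (2.66 CPM), Ptprc (1.24 CPM) and Lmo2 (0.856 CPM), which were at or below 0.132 CPM in the other 2 controls. Lower traces stood in MEF HSP90i replicate 3 (Kit 0.979, Ptprc 0.445, Tal1 0.178 and Lmo2 0.089 CPM), and the other 2 treated libraries held none of the 4.

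Before the values, 4 mouse promoters are shown, for genes of like function whose mRNAs moved in different directions. Cdk4 and Cdk6 encode related kinases that both bind D cyclins and went opposite ways in HPC-7. Ccnd3 rose in MEF while it fell a little in HPC-7 (log2 fold change −0.23). Each sequence holds 250 bases before and 50 bases from the start site onward, on the gene's strand (plus for all 4), from RefSeq's GRCm38.p6 table. Capitals mark matches to the E-box CACGTG in Cdk4 and Cdk6, to the FOXO motif TGTTTAC in the upstream Ccnd3 promoter, and to the heat shock element (alternating GAA and TTC blocks) in the downstream one, on either strand.
Cdk4 promoter, chr10:127063285-127063584: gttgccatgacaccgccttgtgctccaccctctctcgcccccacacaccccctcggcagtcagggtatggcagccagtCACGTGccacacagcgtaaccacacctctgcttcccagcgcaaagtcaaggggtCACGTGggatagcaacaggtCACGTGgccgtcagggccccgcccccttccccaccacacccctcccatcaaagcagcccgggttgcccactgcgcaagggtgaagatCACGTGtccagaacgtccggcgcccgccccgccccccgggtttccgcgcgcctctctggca
Cdk6 promoter, chr5:3343643-3343942: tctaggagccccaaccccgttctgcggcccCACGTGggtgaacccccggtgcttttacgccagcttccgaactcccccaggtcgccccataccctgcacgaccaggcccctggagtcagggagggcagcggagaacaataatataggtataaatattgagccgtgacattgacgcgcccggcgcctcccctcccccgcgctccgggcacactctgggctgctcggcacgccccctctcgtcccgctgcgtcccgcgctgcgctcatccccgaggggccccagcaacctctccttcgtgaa
Ccnd3 upstream promoter, chr17:47504801-47505100: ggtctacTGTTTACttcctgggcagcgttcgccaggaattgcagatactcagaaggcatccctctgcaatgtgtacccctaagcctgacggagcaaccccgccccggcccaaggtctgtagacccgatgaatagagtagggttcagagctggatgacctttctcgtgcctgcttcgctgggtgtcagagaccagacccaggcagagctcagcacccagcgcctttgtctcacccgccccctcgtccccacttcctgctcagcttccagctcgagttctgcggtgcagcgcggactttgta
Ccnd3 downstream promoter, chr17:47593217-47593516: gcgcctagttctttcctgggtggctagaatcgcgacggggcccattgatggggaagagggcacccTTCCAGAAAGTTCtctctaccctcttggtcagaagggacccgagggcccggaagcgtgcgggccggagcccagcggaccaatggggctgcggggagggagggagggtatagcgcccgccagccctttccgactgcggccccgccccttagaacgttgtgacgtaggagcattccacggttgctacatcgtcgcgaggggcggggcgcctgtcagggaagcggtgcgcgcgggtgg

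The Cdk4 window held 4 copies of CACGTG, the sequence that MYC and other bHLH factors bind, starting at −172, −118, −98 and −11 from the start site. At least 4 copies occurred in 8 of 32851 promoters (0.0244%), and at least 1 copy in 7.15%. The Cdk6 window held 1 copy at −220. In the upstream Ccnd3 window the FOXO motif stood at −243 (3.65% of promoters hold it), and in the downstream window a heat shock element stood at −185 (0.603%). The table held 10 promoters for 7 of the 10 genes, with none listed for Ccnd1, Ccnd2 or Cdkn1c. Those 10 were also searched for the E2F motifs TTTCGCGC and TTTGGCGC (0.813% of promoters), the STAT motif TTCNNNGAA (8.30%) and the CRE TGACGTCA (1.79%), and held none of them. A further CACGTG stood at 35 in a Cdkn2c window, and GC boxes (GGGCGG, 35.7% of promoters) and CCAAT boxes (37.4%) were found in 7 and 4 of the 10 windows. The capitals shown do not overlap one another, and a match describes letters, not binding. By the same annotation Cdk4 spans 127063535 to 127067288 on chromosome 10, Cdk6 3341004 to 3531008 on chromosome 5 and Ccnd3 47505051 to 47599689 on chromosome 17. The Cdk6 window and the downstream Ccnd3 window thus lie inside their genes, at internal start sites, unlike the Cdk4 and upstream Ccnd3 windows.

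Of the 3 D cyclins, cyclin D1 mRNA fell in all 3 lines, whereas cyclin D2 and D3 fell in K562 and HPC-7 and rose in MEF. CCND1, the D cyclin most closely tied to growth factor signalling, stood in K562 at 40.4, 36.5 and 42.6 CPM in Control replicates 1 to 3 and 11.6, 10.8 and 12 CPM in HSP90i replicates 1 to 3. Every treated value lay below every control value. The log2 fold change was −1.80 ± 0.14 (SE, n = 3 per group), a 3.47-fold decrease (adjusted p = 0.000229, edgeR's quasi-likelihood test), and 108 of 13456 tested genes (0.803%) fell further.

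In MEF, where Ccnd1 (chromosome 7, 144929931 to 144939831) was abundant, its levels were 519, 520.1 and 577 CPM in Control replicates 1 to 3 and 130.2, 124 and 134 CPM in HSP90i replicates 1 to 3. The treated libraries lay close together and far below the controls, a change of −2.06 ± 0.06 or 4.16-fold (adjusted p = 1.96e-08, edgeR). In HPC-7 the gene gave 67.1, 64 and 63.9 CPM in Control replicates 1 to 3 and 5.16, 17 and 5.21 CPM in HSP90i replicates 1 to 3. Replicate 2 of the treated group held more than the other 2, and all 3 stayed below the controls. The change was −2.88 ± 0.33 (adjusted p = 2.91e-05, edgeR) and −3.66 without that library. Among tested genes 92 of 11703 fell further in HPC-7 (0.786%) and 374 of 12340 in MEF (3.03%).

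Cyclin D2 is used in blood lineages and is a target of cytokine and STAT5 signalling there. CCND2 in K562 stood at 289.7, 247 and 269 CPM in Control replicates 1 to 3 and 141, 138 and 132 CPM in HSP90i replicates 1 to 3, with no overlap between groups (−0.97 ± 0.12, adjusted p = 0.00232, edgeR). In HPC-7 its levels were 171, 155 and 145 CPM in Control replicates 1 to 3 and 58.6, 70.4 and 63 CPM in HSP90i replicates 1 to 3, a 2.46-fold decrease (−1.30 ± 0.09, adjusted p = 1.64e-06, edgeR). Both blood lines thus lost cyclin D2 mRNA in every treated library. For Ccnd2 (chromosome 6, 127125162 to 127152188) fibroblasts went the other way, with 348, 307 and 326 CPM in Control replicates 1 to 3 and 430.0, 417 and 417 CPM in HSP90i replicates 1 to 3. That increase was 1.29-fold (0.36 ± 0.05, adjusted p = 0.000229, edgeR).

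Cyclin D3, widely expressed and prominent in lymphoid and erythroid cells, changed least among the D cyclins in the blood lines. In K562, CCND3 gave 393, 327 and 289.9 CPM in Control replicates 1 to 3 and 237, 230.3 and 233 CPM in HSP90i replicates 1 to 3. The treated libraries agreed closely while the controls spread over more than 100 CPM, and the fall of −0.53 ± 0.14 was near the threshold (adjusted p = 0.0443, edgeR). The call did not hold when Control replicate 2 was left out (adjusted p = 0.122), nor without any 1 treated library (adjusted p = 0.175 to 0.178, edgeR). Ccnd3 in HPC-7 stood at 228, 233 and 245 CPM in Control replicates 1 to 3 and 221, 200.0 and 183 CPM in HSP90i replicates 1 to 3 (−0.23 ± 0.08, adjusted p = 0.0282, edgeR). That call was lost without Control replicate 2 or 3 or HSP90i replicate 3 (adjusted p = 0.0642, 0.0936 and 0.101, edgeR). In MEF it rose without overlap, 119, 108 and 109 CPM (Control) against 178, 173 and 166 CPM (HSP90i), a change of 0.62 ± 0.06 (adjusted p = 1.11e-05, edgeR).

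**Figure D1:**
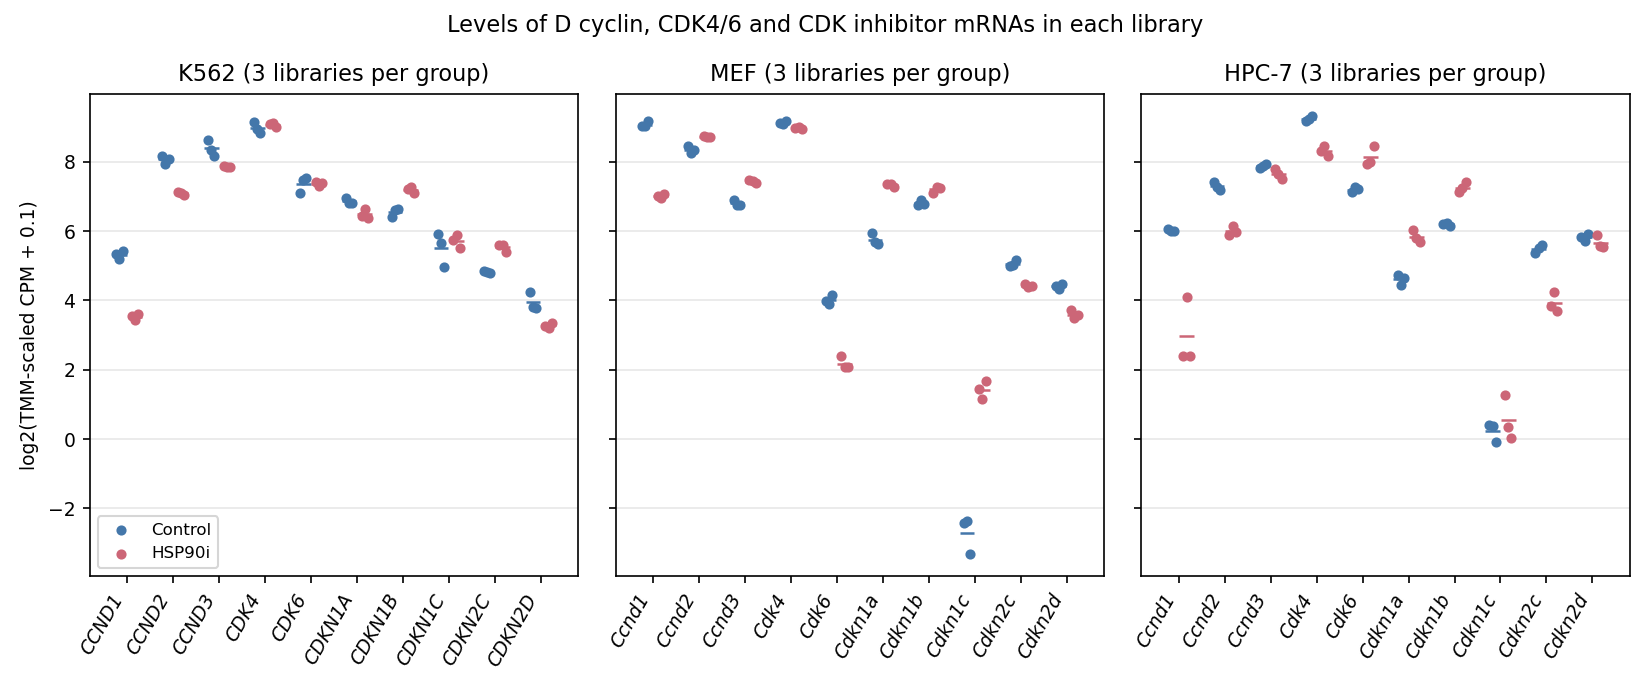
Levels of the 10 mRNAs in every library, as log2 of TMM-scaled CPM plus 0.1 (vertical axis), for K562, MEF and HPC-7, with Control in blue and HSP90i in red, points for libraries and bars for group means. Treated points lie below control points for CCND1 in every panel, and HSP90i replicate 2 of HPC-7 is the high red point of Ccnd1 (17.0 CPM).

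The make-up of the D cyclin counts also differed between the groups within each line, a measure that does not depend on scaling between libraries. Shares are of the summed counts of the 3 genes and are not corrected for transcript length, so they compare conditions rather than proteins. Cyclin D1 made up 55.1 ± 2.25% (SD, n = 3) of D cyclin counts in MEF controls and 17.9 ± 0.694% after treatment. Cyclin D2 took 33.5 ± 1.62% before and 58.3 ± 0.106% after treatment, and became the most counted D cyclin of treated MEF. In HPC-7 the share of D1 went from 14.2 ± 0.178% to 3.26 ± 2.29% and that of D3 from 51.5 ± 2.53% to 73.3 ± 4.03%. In K562 the shares went, for D1, from 6.21 ± 0.769% to 3.0 ± 0.17% and, for D3, from 52.0 ± 3.36% to 61.1 ± 0.545%. For each of these shares the 3 treated libraries lay beyond the 3 controls.

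**Figure D2:**
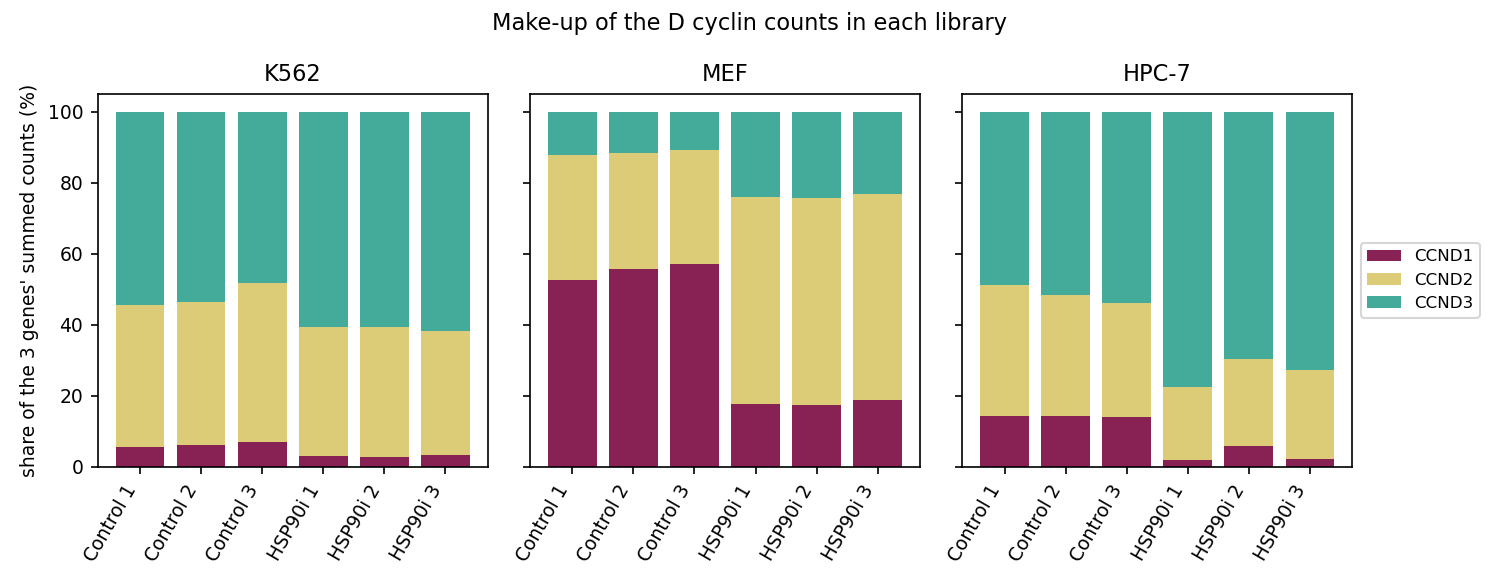
Share of CCND1, CCND2 and CCND3 in the 3 genes' summed counts (vertical axis, percent) in each library (horizontal axis) of K562, MEF and HPC-7. The CCND1 share falls from 55.1% to 17.9% on average in MEF, and the Ccnd3 share rises from 51.5% to 73.3% in HPC-7.

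The kinase genes did not follow one pattern. CDK4, the main cyclin D kinase of most tissues, was not called in K562, with 569, 489 and 454 CPM in Control replicates 1 to 3 and 541, 560.4 and 512 CPM in HSP90i replicates 1 to 3. The groups overlapped, and the difference of 0.09 ± 0.13 had a 95% interval of −0.20 to 0.38 (adjusted p = 0.691, edgeR). Cdk4 in HPC-7 stood at 578, 605 and 641 CPM in Control replicates 1 to 3 and 319.6, 350.1 and 287 CPM in HSP90i replicates 1 to 3. That 1.91-fold fall (−0.93 ± 0.09, adjusted p = 6.69e-06, edgeR) placed every treated library below the controls. In MEF its values, 561, 546 and 584 CPM (Control) against 504, 514 and 492 CPM (HSP90i), differed by only −0.16 ± 0.04 (adjusted p = 0.00731, edgeR). This small change was not called with upper quartile factors (−0.06, adjusted p = 0.338), in a joint fit with HPC-7 (−0.05, adjusted p = 0.591), or without Control replicate 1 or 3 (adjusted p = 0.0667 and 0.0826, all edgeR).

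CDK6, the other partner kinase, is prominent in blood cells, but in the controls of every line it had fewer counts than CDK4. K562 held CDK6 at 137, 177 and 187 CPM in Control replicates 1 to 3 and 172, 157 and 168 CPM in HSP90i replicates 1 to 3, with overlapping groups and a difference of −0.01 ± 0.15 (95% interval −0.34 to 0.32, adjusted p = 0.967, edgeR). In HPC-7 it rose, with 139, 154 and 147 CPM in Control replicates 1 to 3 and 246, 253 and 349.6 CPM in HSP90i replicates 1 to 3. Replicate 3 was the highest treated library, all 3 lay above the controls, and the change was 0.95 ± 0.13 (adjusted p = 7.52e-05, edgeR). MEF held little Cdk6 and lost most of it, 15.8, 14.8 and 17.6 CPM (Control) against 5.17, 4.09 and 4.09 CPM (HSP90i), a 3.52-fold decrease (−1.81 ± 0.13, adjusted p = 2.43e-06, edgeR). MEF Control replicate 3, the library with the higher traces of blood genes, was the highest control here, and without it the change was −1.71 (adjusted p = 2.41e-07, edgeR). Within HPC-7 libraries CDK6 went from 19.5 ± 0.799% to 46.8 ± 7.10% of the counts of both kinases, and within MEF from 2.77 ± 0.145% to 0.876 ± 0.121%. In K562 that share was 25.0 ± 5.02% and 23.6 ± 1.52%, with overlapping groups.

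Among the Cip/Kip inhibitors, CDKN1B rose in all 3 lines and CDKN1A rose in both mouse lines. CDKN1B encodes p27, an inhibitor that accumulates in resting cells and is a known FOXO target. Its mouse promoter window held no exact match to the FOXO motif TGTTTAC, which only 3.65% of all promoters hold. Looser matches and sites outside the window were not searched. In K562 it stood at 85.4, 98 and 99.2 CPM in Control replicates 1 to 3 and 147, 154 and 137 CPM in HSP90i replicates 1 to 3. No treated value overlapped the controls (0.63 ± 0.12, adjusted p = 0.0161, edgeR), but the call was lost without Control replicate 2 or any 1 treated library (adjusted p = 0.0637 to 0.0977, edgeR). Cdkn1b (chromosome 6, 134920401 to 134925525) in HPC-7 went up 2.09-fold, with 74.3, 74.7 and 71.2 CPM in Control replicates 1 to 3 and 140.2, 151 and 169 CPM in HSP90i replicates 1 to 3 (1.06 ± 0.08, adjusted p = 2.6e-06, edgeR). In MEF the rise was smaller, 109, 119 and 111 CPM (Control) against 136, 155 and 152 CPM (HSP90i) (0.39 ± 0.06, adjusted p = 0.000629, edgeR).

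CDKN1A encodes p21, best known as a p53 target, and K562 lacks functional p53. Its levels in K562 were 125, 113 and 113 CPM in Control replicates 1 to 3 and 86.1, 100.3 and 83.5 CPM in HSP90i replicates 1 to 3. All treated values lay below the controls, yet the difference of −0.38 ± 0.13 was not called (adjusted p = 0.0988, edgeR). It was called without Control replicate 1 (−0.33, adjusted p = 0.0207), with library size alone (−0.48, adjusted p = 0.0417, both edgeR) and by limma-voom (−0.36, adjusted p = 0.00191). In MEF, Cdkn1a (chromosome 17, 29090979 to 29100722) gave 61.5, 51.3 and 49.1 CPM in Control replicates 1 to 3 and 164, 164 and 155 CPM in HSP90i replicates 1 to 3, a 2.97-fold rise (1.57 ± 0.08, adjusted p = 4.74e-07, edgeR). HPC-7 held less of it and also raised it, 26.8, 21.9 and 24.9 CPM (Control) against 65.5, 55.5 and 51.4 CPM (HSP90i), by 2.34-fold (1.23 ± 0.11, adjusted p = 6.87e-06, edgeR).

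CDKN1C, an imprinted gene that encodes p57, stood in K562 at 59.9, 50.6 and 31.2 CPM (Control) against 53.1, 58.7 and 45.5 CPM (HSP90i), with overlapping groups (0.15 ± 0.23, 95% interval −0.38 to 0.67, adjusted p = 0.732, edgeR). In MEF controls it had 3 counts in all 3 libraries together, against 112 counts in the treated libraries. The ratio of these scaled counts was 38.3, with an exact 95% interval of 12.8 to 188 that covers counting error only. Treated MEF levels remained low at 2.61, 2.14 and 3.11 CPM, and the gene passed the filter on low counts through the treated group alone, so its call is not read as support. In HPC-7, Cdkn1c (chromosome 7, 143458339 to 143461059) had 45 counts in controls and 54 in treated libraries and was not called (0.47 ± 0.37, adjusted p = 0.277, edgeR).

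The INK4 genes moved in different directions. CDKN2C encodes p18, an INK4 inhibitor active in dividing blood precursors and an E2F-regulated gene. It rose in K562, with 28.5, 28.2 and 27.4 CPM in Control replicates 1 to 3 and 48.1, 48.7 and 42 CPM in HSP90i replicates 1 to 3 (0.72 ± 0.13, adjusted p = 0.0103, edgeR). Leaving out Control replicate 2, HSP90i replicate 1 or HSP90i replicate 2 ended that call (adjusted p = 0.0546, 0.0739 and 0.0675 in turn, edgeR). In HPC-7 the gene (Cdkn2c, chromosome 4, 109660876 to 109666756) fell 2.93-fold, with 41, 45.8 and 48.2 CPM in Control replicates 1 to 3 and 14.3, 19 and 12.8 CPM in HSP90i replicates 1 to 3 (−1.55 ± 0.14, adjusted p = 5.07e-06, edgeR). MEF lost less of it, 31.6, 32.7 and 35.6 CPM (Control) against 22.1, 20.7 and 21.2 CPM (HSP90i) (−0.63 ± 0.07, adjusted p = 5.52e-05, edgeR). K562 was thus the only one of these 3 lines in which CDKN2C was higher after treatment, and since K562 is not in a joint fit its difference from the mouse lines was not tested.

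CDKN2D encodes p19 of the INK4 family, which peaks in S phase. K562 levels were 18.9, 13.8 and 13.7 CPM in Control replicates 1 to 3 and 9.57, 9.2 and 10.1 CPM in HSP90i replicates 1 to 3 (−0.69 ± 0.18, adjusted p = 0.0444, edgeR). Control replicate 1 was the highest library, and the call was lost without Control replicate 2 or any 1 treated library (adjusted p = 0.0896 to 0.176, edgeR). In MEF the fall of Cdkn2d (chromosome 9, 21288459 to 21291421) was clear of the controls, 21.4, 19.9 and 22.3 CPM (Control) against 13, 11.1 and 11.8 CPM (HSP90i) (−0.81 ± 0.09, adjusted p = 5.02e-05, edgeR). HPC-7 values overlapped, 56.8, 52.1 and 60.5 CPM (Control) against 58.7, 47.4 and 46 CPM (HSP90i), and the difference of −0.15 ± 0.11 was not called (adjusted p = 0.22, edgeR), except without HSP90i replicate 1 (−0.28, adjusted p = 0.0126).

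Counted over the 10 genes, K562 had 2 higher and 4 lower, and the median log2 fold change was −0.20. Over all 13456 tested genes 11.1% were called (5.11% higher and 5.97% lower) with a median of −0.02. That tally was 0 higher and 2 lower (CCND1 and CCND2) without Control replicate 2, HSP90i replicate 1 or HSP90i replicate 2, and 1 higher and 2 lower without HSP90i replicate 3. Without Control replicate 3 the same genes were called as in the full fit. Without Control replicate 1 they were all called too, and CDKN1A was called lower as well (adjusted p = 0.0207, edgeR). The genes called over the whole table moved from 1491 to between 348 and 3917 when single libraries were left out. Values of the groups did not overlap for 7 of the 10, against 35.2% of all tested genes. MEF had 5 higher and 5 lower (median 0.10) where 73.4% of 12340 genes were called (35.1% higher and 38.2% lower), and HPC-7 had 3 higher and 5 lower (median −0.19) where 73.1% of 11703 were called (36.5% higher and 36.6% lower). Groups did not overlap for 10 and 8 of the 10 genes in MEF and HPC-7, against 76.2% and 77.4% of all tested genes. The MEF tallies include Cdkn1c, which passed the filter through the treated group alone. Without it 4 of 9 were higher and 5 lower, and 9 of 9 did not overlap.

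**Figure D3:**
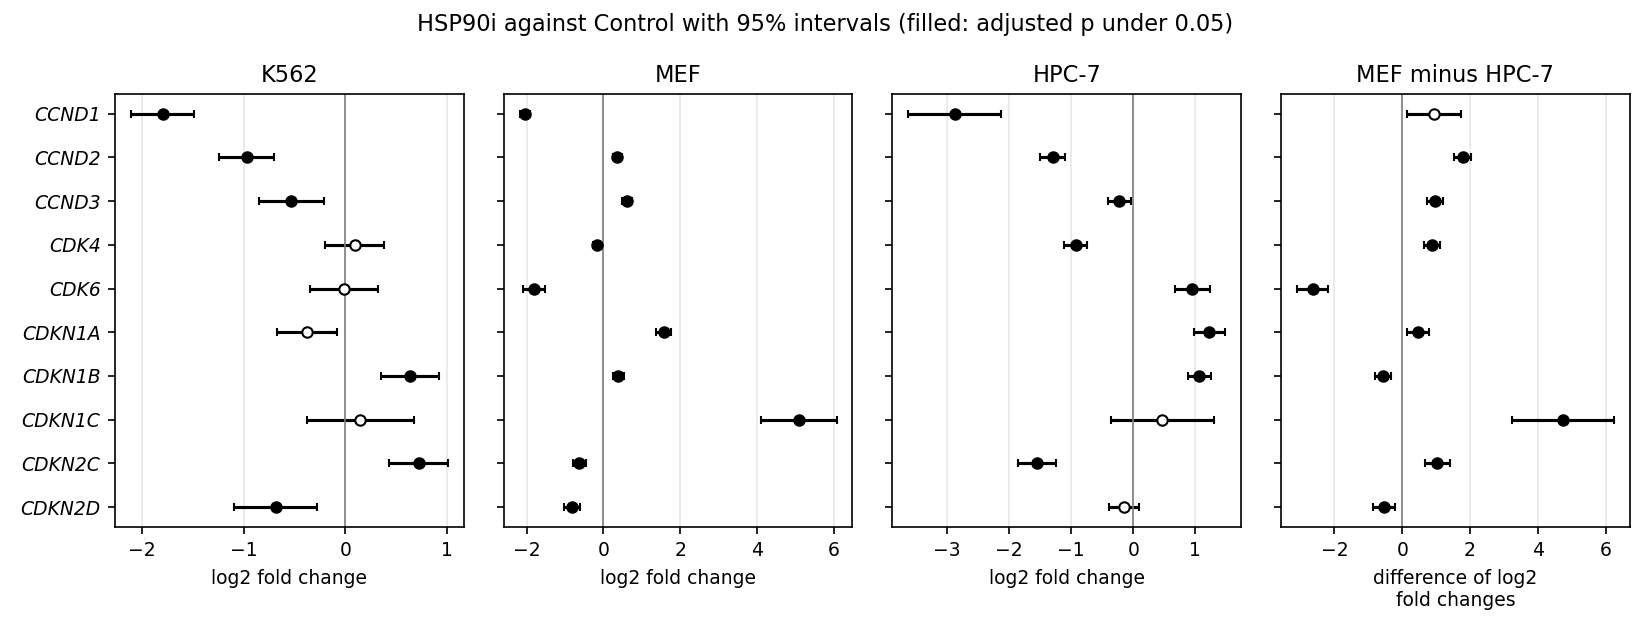
Log2 fold change of HSP90i over Control (horizontal axis) with its 95% interval for the 10 genes in K562, MEF and HPC-7, and in the last panel the difference of the MEF and HPC-7 changes, filled where adjusted p was below 0.05. CCND1 lies left of 0 in each line, while CDK6 lies at −1.81 in MEF and 0.95 in HPC-7.

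Whether the 2 mouse lines responded by different amounts was tested as an interaction over their 12 libraries, in which line and dose (200 and 50 nM) cannot be told apart. It was called for 43.2% of 13720 genes (25.4% higher and 17.8% lower in MEF relative to HPC-7) and for 9 of the 10 genes here (6 higher and 3 lower), or for 8 of 9 (5 higher and 3 lower) leaving aside Cdkn1c. The median of all genes was 0.11 with TMM factors and −0.01 with RLE factors, and from −0.11 to −0.10 when 1 HPC-7 control was left out, so values near these sizes depend on the scaling. Cdk6 differed by −2.64 ± 0.22 (adjusted p = 3.27e-07, edgeR), with a fall in MEF and a rise in HPC-7. Ccnd2 (1.78 ± 0.12, adjusted p = 7e-08) and Ccnd3 (0.97 ± 0.11, adjusted p = 6.18e-06) also had opposite directions in the 2 lines by the same edgeR test. The fall of Cdkn2c was smaller in MEF (1.04 ± 0.17). For Cdk4 (0.89 ± 0.11) HPC-7 fell, and in the joint fit MEF had no called change (−0.05, adjusted p = 0.591, edgeR). For Cdkn2d (−0.54 ± 0.15) MEF fell, and in the joint fit HPC-7 had no called change (−0.16, adjusted p = 0.197, edgeR). Cdkn1b rose less in MEF (−0.56 ± 0.11, adjusted p = 0.000784, edgeR). For Ccnd1 the difference of 0.94 ± 0.36 was not called (adjusted p = 0.0513, edgeR), but it was 1.71 (adjusted p = 1.29e-07) without HSP90i replicate 2 of HPC-7. The difference in Cdkn1a (0.46 ± 0.15, adjusted p = 0.0247, edgeR) kept its call in 9 of 20 alternatives. It was lost with RLE factors (0.33, adjusted p = 0.0899) and in 6 of the fits that left out 1 library, from 0.17 (adjusted p = 0.485) without HPC-7 Control replicate 1 to 0.44 (adjusted p = 0.0533, edgeR) without MEF HSP90i replicate 1. Cdkn1c (4.74 ± 0.70) rests on the 3 counts of the MEF controls.

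Scaled together, the 12 mouse libraries also place each gene's level in the 4 groups. Ccnd1 was at 566 ± 49.3 CPM in MEF controls, 147 ± 5.22 in treated MEF, 59.5 ± 1.80 in HPC-7 controls and 8.31 ± 6.17 in treated HPC-7, with no overlap between neighbours, so treated fibroblasts still held more than untreated precursors. Cdk6 ran the other way, from 259 ± 54.8 CPM in treated and 134 ± 6.61 in control HPC-7 to 16.9 ± 2.01 in control and 5.06 ± 0.737 in treated MEF. Cdk4 overlapped between the controls, 592 ± 38.8 CPM in MEF (552 to 629) and 556 ± 28.6 in HPC-7 (529.9 to 587), and treated MEF (573 ± 15.3) overlapped both, whereas treated HPC-7 (291 ± 27.3) lay apart. Cdkn1b reached 168 ± 11.1 CPM in treated MEF and 140.3 ± 14.3 in treated HPC-7, ranges that overlapped narrowly (155.7 to 177 and 128 to 155.9), from 119 ± 2.90 and 67.2 ± 1.74 in the controls. Cdkn1a had its highest level in treated MEF (183 ± 6.74 CPM) and its lowest in HPC-7 controls (22.4 ± 2.29), with MEF controls (56.7 ± 7.48, 51.9 to 65.3) and treated HPC-7 (52.5 ± 6.39, 47.3 to 59.6) overlapping. For Ccnd2 the order was treated MEF (479 ± 11.3 CPM), MEF controls (344 ± 30.1), HPC-7 controls (144 ± 12.1) and treated HPC-7 (58.5 ± 5.40), and for Ccnd3 HPC-7 controls (216 ± 7.96) were highest and MEF controls (118 ± 8.59) lowest.

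Ratios within libraries set counts of the inhibitors against counts of the D cyclins or of the 2 kinases. Counts of the 3 Cip/Kip genes per D cyclin count averaged 0.402 ± 0.0279 in K562 controls and 0.756 ± 0.0617 after treatment. The MEF values were 0.171 ± 0.0122 and 0.431 ± 0.0199, and those of HPC-7 were 0.216 ± 0.00312 and 0.779 ± 0.0904. Each treated library lay above all controls of its line, with mean ratios 1.88, 2.52 and 3.60 times those of the controls. Such a ratio also rises when D cyclin counts fall, and all 3 D cyclins were called lower in K562 and HPC-7. The sum of the D cyclins fell in MEF too. Ccnd1 went there from 539 to 129 CPM on average, while Ccnd2 rose from 327 to 421 and Ccnd3 from 112 to 172 CPM. K562 CDKN1A, lower in every treated library (117 to 90.0 CPM on average), still went from 0.182 ± 0.00825 to 0.236 ± 0.0250 per D cyclin count. In K562, where CDKN1A and CDKN1C had no called rise, CDKN1B counts alone went from 0.148 ± 0.0258 to 0.383 ± 0.0210 per D cyclin count. Counts of Cdkn2c and Cdkn2d per Cdk4 and Cdk6 count went from 0.0939 ± 0.00215 to 0.0656 ± 0.00397 in MEF. In K562 they went from 0.0648 ± 0.00211 to 0.0795 ± 0.00234, without overlap in either line. HPC-7 values overlapped (0.129 to 0.138 in controls and 0.0924 to 0.129 after treatment). These mRNA ratios describe transcripts and not the stoichiometry of the proteins.

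**Figure D4:**
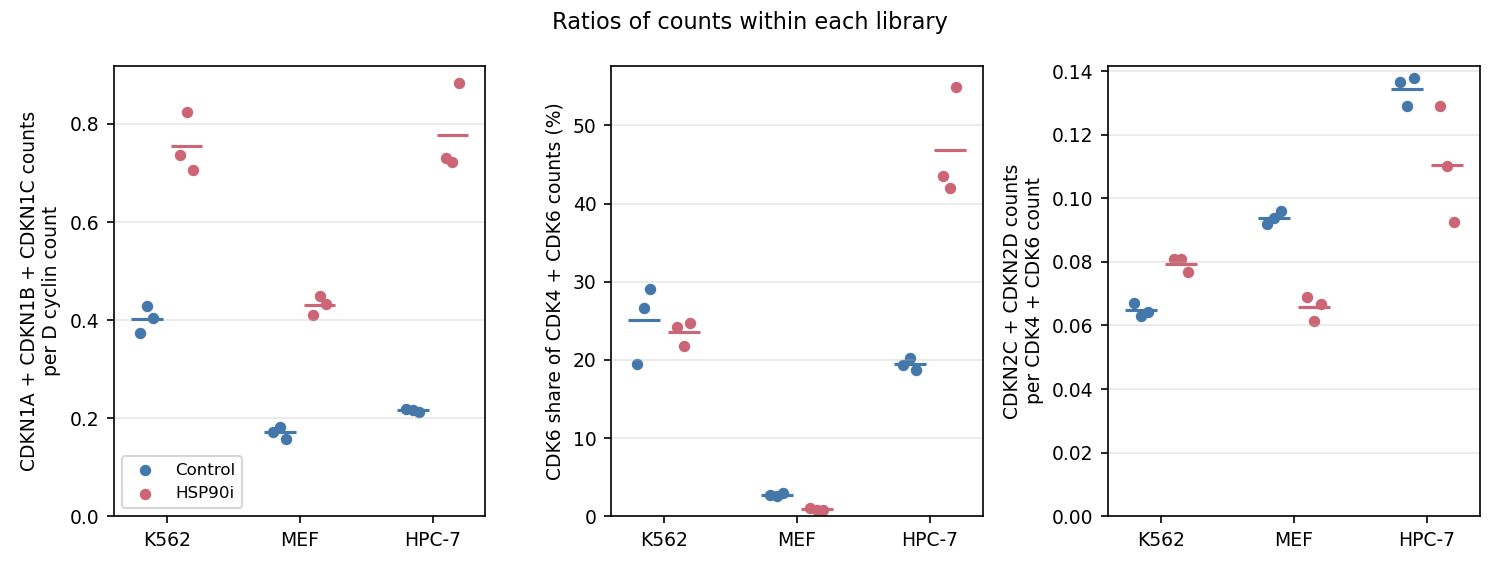
Ratios of raw counts within each library (vertical axes) for K562, MEF and HPC-7, with Control in blue, HSP90i in red, points for libraries and bars for means. Cip/Kip counts per D cyclin count are higher in all 3 treated libraries of each line, and the CDK6 share rises to 46.8% on average in HPC-7 and falls to 0.876% in MEF.

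Genes that act beside these 10 at the G1/S boundary (cyclins E and A, CDK2, CDC25A, the CDK-activating kinase, RB family members and 2 genes that are counted but not reported here) were read from the same fits. In K562, where 11.1% of all genes were called, 0 rose and 1 fell of 11 tested, the latter being CCNE1, which encodes cyclin E1 (39.2 ± 0.42 to 26.2 ± 2.7 CPM, −0.58 ± 0.13). In MEF 3 of 13 rose and 7 fell, beside 73.4% of all genes called. Ccna2, the S-phase cyclin A gene (−3.00 ± 0.09), Cdk2 (−1.26 ± 0.07) and the RB relative Rbl1 (−1.68 ± 0.09) fell with the smallest p, while Rbl2, the p130 gene of resting cells (0.39 ± 0.05), and Rb1 (0.93 ± 0.17) rose. HPC-7 had 4 of 12 higher and 8 lower, beside 73.1% of all genes called. Those with the smallest p there were also Cdk2 (−0.81 ± 0.08), Ccna2 (−2.48 ± 0.26) and Rbl1 (−2.42 ± 0.30), with Rbl2 (0.69 ± 0.07), Rb1 (0.59 ± 0.10) and Cdk7 (0.27 ± 0.07) higher. List medians were −0.06, −0.36 and −0.68 in K562, MEF and HPC-7, beside −0.02, −0.01 and 0.00 over all genes.

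A second list held genes that degrade or assemble D cyclins and CDK inhibitors. Of its 14 members 0 rose and 1 fell in K562, 5 rose and 3 fell in MEF, and 4 rose and 6 fell in HPC-7, with medians of −0.08, 0.05 and −0.07. The shares of all genes called were 11.1%, 73.4% and 73.1% in the same order. The single K562 call was UBAC1, a subunit of the KPC ubiquitin ligase that acts on p27 (297 ± 49.1 to 116 ± 8.06 CPM, −1.36 ± 0.15). Cks1b, the cofactor with which the SCF-SKP2 ligase recognises p27, fell in MEF (123 ± 7.12 to 26.5 ± 1.14 CPM, −2.21 ± 0.06) and HPC-7 (−2.56 ± 0.22). Skp2 itself fell in HPC-7 (73.1 ± 1.93 to 15.2 ± 5.52 CPM, −2.29 ± 0.19) and was not called in MEF (0.06 ± 0.05), a difference of 2.47 ± 0.22 (adjusted p = 6.81e-07, edgeR's interaction test). Dyrk1b, a quiescence-linked kinase that phosphorylates cyclin D1, rose in MEF (11.6 ± 0.94 to 58.9 ± 5.64 CPM, 2.36 ± 0.10) and in HPC-7 (15 ± 0.265 to 64 ± 10.4 CPM, 2.10 ± 0.12). Rnf123, the catalytic KPC subunit (0.73 ± 0.06), and Skp1a, a core subunit of SCF ligases (0.54 ± 0.07), also rose in MEF, whereas Skp1a fell in HPC-7 (−0.21 ± 0.07). Higher genes in HPC-7 included Ddb1 (0.35 ± 0.08) and Fbxo4 (0.28 ± 0.10). Cdc37 fell a little in MEF (−0.23 ± 0.06) and HPC-7 (−0.49 ± 0.09), as did the cullin gene Cul1 (−0.24 ± 0.06 and −0.30 ± 0.07).

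Among 8322 genes tested in all 3 lines, those whose 3 log2 fold changes lay nearest to those of CCND1 were PLK3 (distance 0.663), MYC (0.791) and TCF19 (1.01). MYC changed by −1.43, −2.76 and −2.89 in K562, MEF and HPC-7. CDKN1B had closer neighbours, KMT2E (0.0801), UBR2 (0.0988) and MARCH8 (0.124). KMT2E changed by 0.57, 0.36 and 1.03 in the same order. The distance is Euclidean over only 3 values.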

How the data were processed

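RNA-seq of K562, MEF and HPC-7 (3 Control and 3 HSP90i libraries each) was analysed from the authors' deposited gene tables of raw counts. The builds named in the submitters' processing notes are mm10, hg38, GRCm38 and GRCh37. The same notes list featureCounts, TopHat2 2.0.13, Trim Galore and Picard, then MACS2, Bowtie2 and DESeq2, without saying what each was used for. Whether counting used strand is not stated, so overlapping genes may share reads. Samples were grouped by title, with DMSO columns taken as Control.

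Genes were filtered with filterByExpr, scaled with TMM and tested with edgeR 4.0.16 (quasi-likelihood, Benjamini-Hochberg, threshold 0.05) in R 4.3.3, each line alone, all 10 genes passing the filter. SE is the log2 fold change over the square root of F. Alternatives were RLE, upper quartile or no factors, no filter, at least 1 CPM in 3 libraries, DESeq2 1.42.0, limma-voom (limma 3.58.1) with sample weights, a replicate block, single libraries left out and a joint fit of the 12 mouse libraries. The procedure was also run on simulated data in which few genes changed, unlike in MEF and HPC-7, so that run does not test the scaling there. Named beside the 10 genes were up to 3 called genes per direction, line and list with the smallest p, and the 3 nearest neighbours of CCND1 and CDKN1B. Some genes chosen by this rule are not reported here. The rule for the 10 genes uses names alone, but they and the lists were picked with earlier results of these data known. The HSP90 ChIP-seq peaks were not used here, and the planned distances of peaks from these genes were not computed. Mouse positions and promoters are RefSeq's (GRCm38.p6), all 10 identifiers matching the reference symbols. Figures were drawn with matplotlib 3.10.9.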

Additional observations from a re-analysis of the deposited data

Results flagged for a closer look

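The responses of MEF and HPC-7 differed by the interaction test (edgeR's quasi-likelihood test, 3 libraries per group) for 9 of the 10 genes, where 43.2% of all tested genes did. Signed as MEF minus HPC-7 on the log2 scale, the differences were 1.78 for Ccnd2, 0.97 for Ccnd3, 0.89 for Cdk4, −2.64 for Cdk6, 0.46 for Cdkn1a, −0.56 for Cdkn1b, 4.74 for Cdkn1c, 1.04 for Cdkn2c and −0.54 for Cdkn2d. For Ccnd2, Ccnd3 and Cdk6 the directions in the 2 lines were opposite. The HPC-7 fall of Ccnd3 was small (−0.23) and kept its call in 10 of 15 alternatives. The Cdkn1c value rests on 3 counts in the MEF controls, and that gene passed the filter on low counts in MEF through the treated group alone, so 8 of the other 9 genes is the count to set beside the share of all genes. The Cdkn1a call was kept in 9 of 20 alternatives. Line and dose cannot be told apart in any of these values.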

How the results depend on the processing

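Values are log2 fold changes unless called counts. CCND1 and CCND2 kept their direction and call in each line under every alternative run, as did MEF and HPC-7 Cdk6, Cdkn1a, Cdkn1b and Cdkn2c. The number of genes called in K562 was 1491 and became 5591 with limma-voom, and ranged from 348 (without HSP90i replicate 2) to 3917 (without Control replicate 1) when single libraries were left out. With library size alone, K562 CDK4 was −0.0080 and CDKN1A −0.48, the latter called, as it was with limma-voom (−0.36). K562 CDK6 turned to 0.0080 without a filter and 0.0053 with DESeq2. MEF Cdk4 lost its call with upper quartile factors (−0.061) and in the joint fit (−0.049), and HPC-7 Ccnd3 with upper quartile factors (−0.17).

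When 1 library was left out, K562 values ranged from −0.62 to −0.40 for CCND3, −0.13 to 0.077 for CDK6, −0.46 to −0.33 for CDKN1A, 0.57 to 0.68 for CDKN1B, −0.073 to 0.34 for CDKN1C, 0.69 to 0.79 for CDKN2C and −0.77 to −0.52 for CDKN2D. CDK6 turned positive without Control replicate 2 (0.032), Control replicate 3 (0.077) or HSP90i replicate 2 (0.031), and CDKN1C negative without Control replicate 3. MEF Cdk4 ranged from −0.18 to −0.099. HPC-7 ranged from −0.31 to −0.16 for Ccnd3, −0.093 to 0.71 for Cdkn1c (negative without HSP90i replicate 1) and −0.28 to −0.088 for Cdkn2d. The difference between mouse lines ranged from 0.64 to 1.71 for Ccnd1 and from 0.17 (without HPC-7 Control replicate 1) to 0.58 for Cdkn1a. The causes were not tested.

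The difference in Cdkn1a was not called with upper quartile (0.37) or RLE factors (0.33), by DESeq2 (0.33) or limma-voom (0.36), or with library size alone (0.38). That in Ccnd1 was called without a filter (0.95) and with limma-voom (1.38). The other 8 differences kept sign and call under all 20 alternatives. Of called differences over all genes, 58.8% were higher with TMM, 47.3% with RLE, 46.8% with DESeq2 and 39.2% to 40.0% without 1 HPC-7 control. In K562, 46.1% of calls were higher with TMM, 26.7% with library size alone (median of all genes −0.13) and 35.3% with upper quartile factors.

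Same-numbered Control and HSP90i libraries did not deviate together throughout (r = 0.281, 0.0417 and 0.451 in K562, 0.268, −0.223 and −0.245 in MEF, and 0.0064, 0.0235 and −0.0898 in HPC-7), so the numbers were not taken as pairs. With a replicate block the calls numbered 1810, 8796 and 8129 in K562, MEF and HPC-7 and 5458 for the difference between mouse lines, HPC-7 Ccnd3 was not called (−0.23) and the difference in Ccnd1 was (1.05). Not every library correlated best with its own number. With 3 libraries per group and 3 control counts, the size of the MEF Cdkn1c change is poorly fixed.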
